A study of Mus musculus with 4 samples.

Results

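The miR-181 family was followed in small RNA libraries from NIH-3T3 cells, an established line of mouse embryo fibroblasts. Untreated cells served as the control group, and the treated group received 500 nM thapsigargin for 24 h. Thapsigargin blocks the pump that fills the endoplasmic reticulum (ER) with calcium. Each group held 2 libraries, and all cells were grown to confluency in culture with no genetic change named. Nothing in the labels ties a replicate to a culture of its own, so the p-values cover the spread between these samples alone, and that spread may be technical. The family was taken by name from the deposited read tables: reads that matched 1 miRNA only and were named miR-181a, miR-181b, miR-181c or miR-181d, as a mature or a star arm. This gave 9 of the 630 arms with reads, an arm being the product of 1 side of a miRNA hairpin.

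A miRNA hairpin is cut into a pair of arms, of which one is usually loaded into the silencing complex and pairs with target mRNAs mainly through its seed, bases 2 to 8. In the older naming of the deposited tables the abundant arm carries the plain name and the other arm a star. The mature miR-181 arms share their seed. In mice the family is best known from lymphocytes, where miR-181a tunes the sensitivity of T cells to antigen, and miR-181a was reported in human cells to repress GRP78, the main chaperone of the ER. Per RefSeq (GRCm38.p6), 6 genes encode the family in mice, as neighbouring pairs: Mir181a-1 with Mir181b-1 on chromosome 1, Mir181a-2 with Mir181b-2 on chromosome 2, and Mir181c with Mir181d on chromosome 8. The submitters' notes name another build, so no coordinates are given.

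The RefSeq sequences of the mature arms are shown with the seed in capitals, since the arms are told apart only by the bases behind it.
miR-181a: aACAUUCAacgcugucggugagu
miR-181b: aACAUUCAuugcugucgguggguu
miR-181c: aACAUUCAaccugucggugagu
miR-181d: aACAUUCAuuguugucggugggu
Counted from base 1 at the 5′ end, miR-181b differs from miR-181a by A9U, C10U and A21G, and miR-181d differs from miR-181b by C12U. miR-181c is 1 base shorter than miR-181a, at 22 against 23 bases, and lies 1 edit away from it. The mature sequences of miR-181a and miR-181b are the same from both of their genes, so reads of these arms cannot be split between chromosomes 1 and 2. The star arms can be split.
miR-181a-1*: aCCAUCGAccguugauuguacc
miR-181a-2 3p arm: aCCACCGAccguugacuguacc
miR-181c*: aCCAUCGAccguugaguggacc
miR-181b-1*: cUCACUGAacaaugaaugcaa
The star arm of miR-181a-1 differs from that of miR-181c by U16G and U19G, with the same seed, and from the 3p arm of miR-181a-2 by U5C and U16C. All 12 pairings of a family arm with its gene, the 3p arm of miR-181a-2 included, matched an entry in RefSeq.

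Of the reads entering the miRNA count, 2685965 to 5570971 per library were assigned to 1 arm, and miR-10b alone took 35.7% to 56.6% of these. Control replicate 1 stood apart from the other 3 libraries in the first base of its reads, which is taken up with the family's own reads below. Fibroblast miRNAs were present throughout: the 4 of 5 listed markers with reads of their own summed to 85450 to 102200 CPM (counts scaled to a common library size) in controls and 158600 to 169200 CPM with thapsigargin. Blood cell markers, which matter because miR-181a is abundant in lymphocytes, summed to 79.5 and 108 CPM in controls and 97.9 and 94.1 CPM with thapsigargin. Reads were found for 5 of 5, but miR-155 alone of these had at least 100 reads in every library. Stem cell, muscle and neural markers summed to at most 1.05, 0.323 and 38.7 CPM. What part these levels have in the results was not tested. Levels here and below are CPM after scaling by edgeR's trimmed mean of M-values (TMM), unless reads are named. A level counts RNA from all cells of a culture, so fewer cells and less RNA per cell cannot be told apart.

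The family as a whole had 56535 reads in control replicate 1, 22084 in control replicate 2, 63458 in thapsigargin replicate 1 and 44109 in thapsigargin replicate 2, the order kept below wherever 4 values follow each other. These were 1.47%, 0.608%, 1.14% and 1.64% of all arm reads. The summed level was 10446 and 6754 CPM in the controls against 10247 and 23051 CPM with thapsigargin. The groups overlapped, and the second thapsigargin library stood above the other 3. The ambiguous tables added almost nothing: reads that matched more than 1 name, at least one of them in the family, came to 4, 4, 5 and 2 per library. Over all libraries, 8 were shared between miR-181b and miR-181d, 4 between miR-181a and miR-181b, and 3 among 10 names.

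mmu-miR-181a, the dominant member, stood at 8218 and 4990 CPM in untreated cells, against 8232 and 18486 CPM in treated cells. It ranked between place 8 and place 18 of 630 arms by reads. The groups did not overlap, but the lower thapsigargin library lay at nearly the same level as the higher control. The means were 6604 ± 2282 CPM (SD, n = 2) and 13359 ± 7251 CPM, a log2 fold change of 1.02 (SE 0.55) that did not pass the quasi-likelihood test of edgeR after Benjamini-Hochberg adjustment (adjusted p = 0.893). Without thapsigargin replicate 2 the log2 fold change was 0.33, and without control replicate 2 it was 0.66. Scaled by total arm reads the groups overlapped, at 11530 and 4491 against 9150 and 13170 CPM.

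mmu-miR-181b, expressed from the same gene pairs, stood at 577 and 616 CPM in untreated cells, against 360 and 2575 CPM in treated cells. The thapsigargin libraries lay on either side of the controls, 1 below and 1 far above them. The log2 fold change of 1.30 (SE 0.82) therefore rests on thapsigargin replicate 2, and it turned to -0.71 without that library (adjusted p = 0.893 with all libraries by edgeR's quasi-likelihood test). The gap between the thapsigargin replicates was 7.13-fold, the 4th largest by size among the 310 tested arms, whose median gap was 0.62 on the log2 scale. Gaps between replicates, here and below, were taken with 1 CPM added to each level.

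mmu-miR-181d, from the gene pair on chromosome 8, followed the same order over the libraries as miR-181b. It stood at 253 and 259 CPM in untreated cells, against 159 and 677 CPM in treated cells, again with the controls in between. Its log2 fold change was 0.70 (SE 0.69, adjusted p = 0.987 in edgeR's quasi-likelihood test) with all libraries and -0.67 without thapsigargin replicate 2. The thapsigargin replicates differed 4.23-fold, the 17th largest gap of the tested arms.

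mmu-miR-181c, encoded beside miR-181d, did not share this pattern. It stood at 1165 and 635 CPM in untreated cells, against 1310 and 1106 CPM in treated cells. The groups overlapped, and the treated replicates differed 1.19-fold. The log2 fold change was 0.42 (SE 0.48, adjusted p = 0.987 in edgeR's quasi-likelihood test). It was 0.03 without control replicate 2 and 0.93 without control replicate 1.

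The tested star arms stood lower than the mature arms. With 1 CPM added to each level, their replicates differed at most 1.27-fold in controls and 1.17-fold with thapsigargin. miR-181c* stood at 120 and 140 CPM in untreated cells, against 93.3 and 105 CPM in treated cells, and mmu-miR-181a-1* at 103 and 107 CPM against 86.4 and 97.2 CPM. In both arms each thapsigargin library lay below each control, by a small margin. The log2 fold changes were -0.40 (SE 0.49) for miR-181c* and -0.20 (SE 0.49) for miR-181a-1*, and neither passed the test (adjusted p = 0.987 each by edgeR's quasi-likelihood test). mmu-miR-181b-1* had few reads, 50 and 23 in untreated cells, against 39 and 10 in treated cells. Its level was 9.24 and 7.03 CPM against 6.30 and 5.23 CPM, without overlap, and its log2 fold change of -0.49 (SE 0.62) did not pass the test either. Scaled by total arm reads, its groups overlapped, while those of the other 2 tested star arms still did not. Replicates then lay farther apart, with miR-181a-1* at 144.7 and 96.33 CPM in untreated cells, against 96.03 and 69.25 CPM in treated cells. The log2 fold changes were then -0.73 for miR-181c*, -0.54 for miR-181a-1* and -0.82 for miR-181b-1*. Under that scaling 24.8% of all tested arms lay lower without overlap and 6.77% higher.

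**Figure D1:**
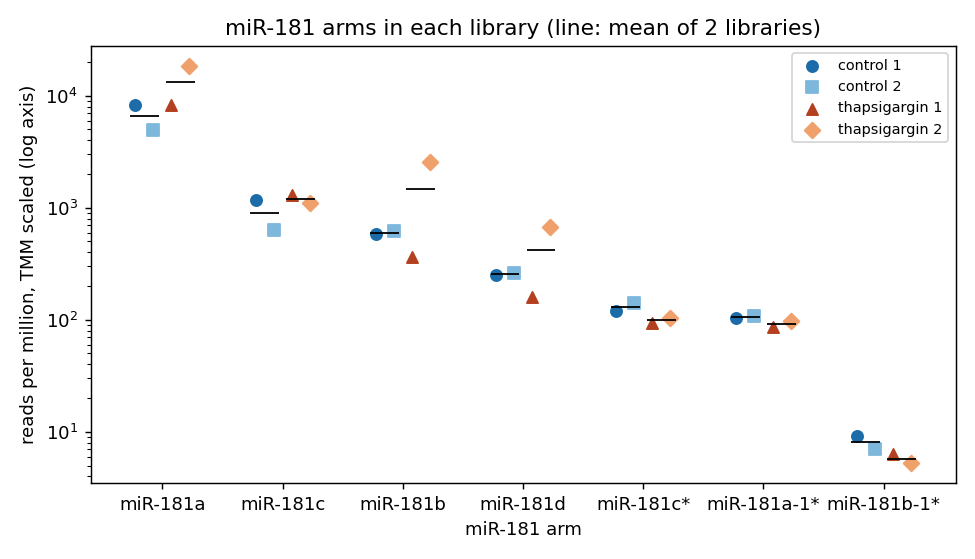
Level of each tested miR-181 arm (x axis) in CPM after TMM scaling (y axis, log scale), 1 point per library and a line at the mean of the 2 libraries of a group. miR-181b and miR-181d split the thapsigargin libraries around the controls, while the star arms sit close together with the thapsigargin points lowest.

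In all, 7 of the 9 arms had enough reads to be tested, and 0 passed at an adjusted p of 0.05. miR-181b-2* and miR-181d* had 1 read each, in control replicate 1, and were left out by the filter on low counts. The background was the same, with 0% of the 310 tested arms called and 3.87% at an unadjusted p under 0.05. No miR-181 arm had an unadjusted p under 0.05, and the smallest was 0.0966, for miR-181a. The 4 mature arms had log2 fold changes above 0 and the 3 tested star arms below 0, with a median of 0.42 over the 7 against -0.01 over all tested arms. Groups did not overlap in 1 arm on the higher side and in 3 on the lower side, against a background of 17.4% and 16.1% of tested arms. The 7 arms are not independent, since a mature and a star arm come from 1 hairpin and neighbouring genes from 1 region. Scaling by total arm reads moved the median of all tested arms to -0.36 and left the sign of the 7 arms as it was, with miR-181c at 0.02.

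**Figure D2:**
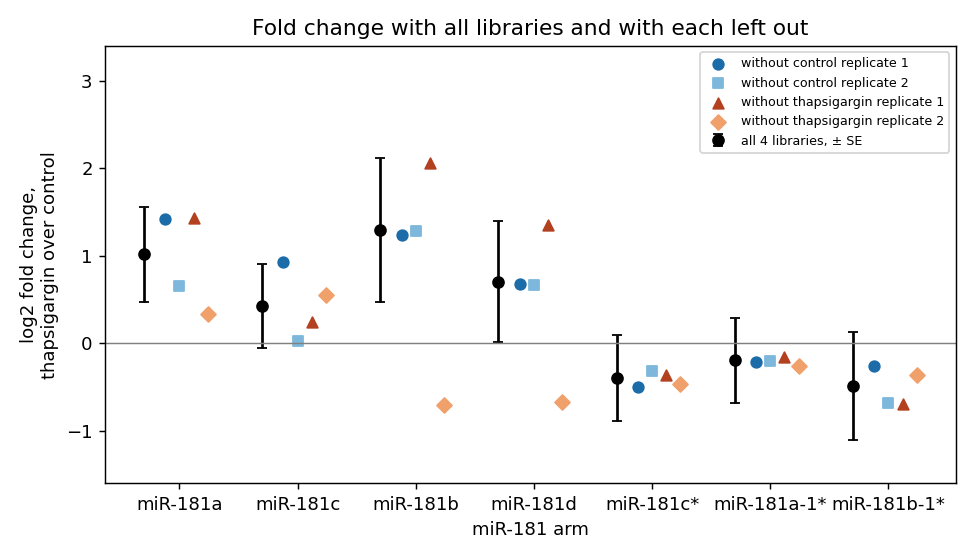
Log2 fold change of thapsigargin over control (y axis) for each tested miR-181 arm (x axis). Black points with bars give the value from all 4 libraries ± SE, and coloured points give the value with 1 library left out. For miR-181b and miR-181d the value lies below 0, at -0.71 and -0.67, without thapsigargin replicate 2.

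Per the authors' deposited table, the log2 fold changes were 1.16 for miR-181b, 0.89 for miR-181a, 0.58 for miR-181d (rounded) and 0.34 for miR-181c. The adjusted p of each was 1 in the authors' deposited table, and miR-181b ranked 26th of 324 miRNAs by p.

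The order of the mature arms was asked within each library, where it does not depend on scaling. These arms are 22 to 24 bases long, and their reads were compared directly, 18-nt reads included. In control replicate 1 the 18-nt reads were 27.6% of miR-181b and 34.2% of miR-181d reads. Such reads could not be seen equally in all arms and libraries, as given below, which limits the shares and ratios of that library. miR-181a made up 80.5%, 76.8%, 81.8% and 80.9% of the mature family reads. Its share was therefore nearly constant, at 78.6 ± 2.61% (SD, n = 2) in controls and 81.4 ± 0.630% with thapsigargin. The groups did not overlap, but 2 libraries against 2 cannot give an exact two-sided permutation p below 0.333, the value found here. With 18-nt reads left out the groups overlapped, and the difference between their means was 2.13 percentage points, against 2.75 with these reads.

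The other paralogues traded places behind it. miR-181c took 11.4%, 9.77%, 13.0% and 4.84% of the mature reads, and miR-181b took 5.65%, 9.47%, 3.58% and 11.3%. miR-181c thus came next after miR-181a in control replicate 1 and thapsigargin replicate 1, and miR-181b in thapsigargin replicate 2. In control replicate 2 these shares did not differ beyond counting error, with exact 95% intervals of 9.37% to 10.2% for miR-181c and 9.08% to 9.87% for miR-181b. miR-181d was the least abundant in every library, at 2.48%, 3.99%, 1.58% and 2.96%. For miR-181b, miR-181c and miR-181d the groups overlapped, with an exact permutation p of 1, 1 and 0.667. Treated minus untreated, their shares differed by -0.13, -1.66 and -0.96 percentage points. With 18-nt reads left out the differences were 0.51, -2.05 and -0.595 points.

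**Figure D3:**
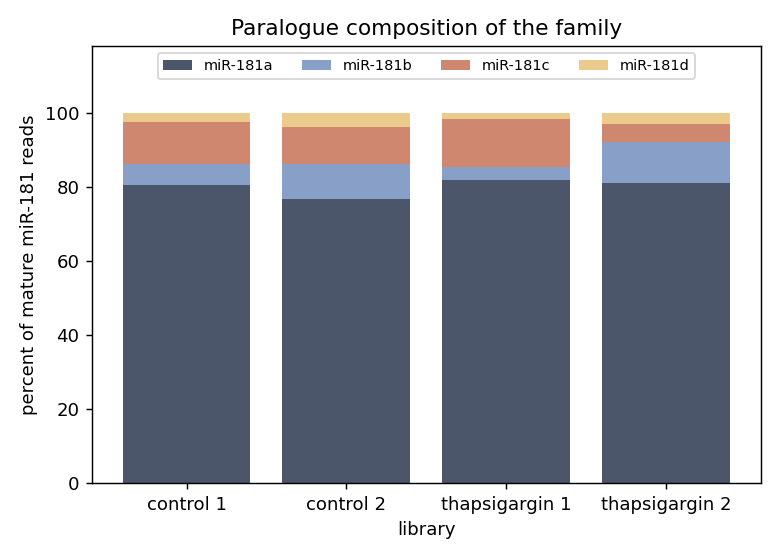
Share of each paralogue in the mature miR-181 reads (y axis, percent) of each library (x axis). miR-181a takes 76.8% to 81.8% in every library, while the shares of miR-181b and miR-181c move in opposite directions between the libraries.

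Members of neighbouring genes did not keep a fixed ratio. For each 100 reads of miR-181c, its neighbour miR-181d had 21.7, 40.9, 12.1 and 61.2 reads. The value of control replicate 1 includes the 18-nt reads of miR-181d, 34.2% of its reads there. Against miR-181b, encoded elsewhere but 1 substitution apart in the bases they share, the ratio was steadier, at 43.9, 42.1, 44.1 and 26.3 reads for each 100. The star arms miR-181a-1* of chromosome 1 and miR-181c* of chromosome 8 kept close to each other. For each 100 reads of miR-181a-1* there were 117, 131, 108 and 107.5 of miR-181c*, but 8.96, 6.57, 7.29 and 5.38 of miR-181b-1*. The ratio of the mature arms spread more widely, at 14.2, 12.7, 15.9 and 5.98 reads of miR-181c for each 100 of miR-181a. Reads of miR-181a come from both of its genes and those of miR-181a-1* from chromosome 1 only. The star and mature ratios are therefore not of the same genes.

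Star arms were asked as a share of the family. They made up 2.23% and 3.76% of family reads in untreated cells, against 1.82% and 0.898% in treated cells. The nearest exact 95% intervals were 2.11% to 2.36% and 1.71% to 1.92%, for counting error only. Each thapsigargin library lay below each control (2.995 ± 1.08% against 1.36 ± 0.649%, SD, n = 2; exact two-sided permutation p = 0.333, the smallest possible). For miR-181a-1* the share of star reads, out of its own and miR-181a reads, was 1.24% and 2.10% against 1.04% and 0.523%. For miR-181c* it was 9.37% and 18.04% against 6.65% and 8.64%. In both arms the groups did not overlap (exact permutation p = 0.333 each). For miR-181b-1* the values were 1.58% and 1.13% against 1.72% and 0.203%, with overlap. The share of miR-181c* was thus the highest in every library. Reads of miR-181a and miR-181b come from both of their genes, so these shares do not rank the hairpins. Over the 18 shares and ratios tested this way, 5 reached the smallest p, and every adjusted p was 1. The denominator holds the mature reads. Summed, the mature arms stood at 10213 and 6500 CPM in untreated cells, against 10061 and 22844 CPM in treated cells. The star arms summed to 233 and 254 CPM against 186 and 207 CPM. What part each sum has in the lower share was not tested.

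Reads of the miR-181a-2 3p arm were not in the star tables but among the hairpin reads, which hold reads outside the annotated arms. The hairpin entry of miR-181a-2 had 142, 59, 171 and 48 reads, and 417 of these 420 held bases 4 to 18 of the 3p arm. That arm stood at 26.2, 18.04, 27.5 and 24.0 CPM, with overlap between the groups. Set beside miR-181a-1*, it made up 20.3%, 14.4%, 24.1% and 19.8% of the star reads that can be given to 1 of the miR-181a genes. The gene on chromosome 1 thus gave most of the star reads in every library. A predicted star arm of miR-181a-2 held 2 reads, in thapsigargin replicate 1. For miR-181b-2*, the star arm of the other gene of miR-181b, the single read stands beside the 10 to 50 reads a library of miR-181b-1*.

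The ends of the reads differed between control replicate 1 and the other 3 libraries. The commonest miR-181a read is shown for each kind of library, with the base that only the first has in a capital.
miR-181a, control replicate 1: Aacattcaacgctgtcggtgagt
miR-181a, other libraries: acattcaacgctgtcggtgagt
miR-181b, control replicate 1: Aacattcattgctgtcggtggg
miR-181b, other libraries: acattcattgctgtcggtggg
miR-181c*, control replicate 1: Accatcgaccgttgagtggacc
miR-181c*, other libraries: ccatcgaccgttgagtggacc
The miR-181a read of control replicate 1 is its RefSeq sequence in full and made up 51.4% of the arm's reads there. The shorter read made up 47.7%, 53.7% and 53.1% in the other libraries. Reads beginning at base 1 were 98.8% of miR-181a reads in control replicate 1 and 0.0235% to 0.0306% in the others, where 98.6% to 98.9% began at base 2. The same held for miR-181b, miR-181c and miR-181d, with 97.8% to 98.8% starting at base 1 in control replicate 1 and 97.6% to 98.5% starting at base 2 elsewhere. miR-181c* was the exception in the family: in the other 3 libraries 9.63%, 7.96% and 9.50% of its reads began at base 1. For miR-181a-1* that share was at most 1.08%. The hairpin entry of miR-181c, outside the annotated arms, held 91, 0, 1 and 0 reads. Its commonest read in control replicate 1, with 22 reads, began 1 base before miR-181c*. The cause was not tested.

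**Figure D4:**
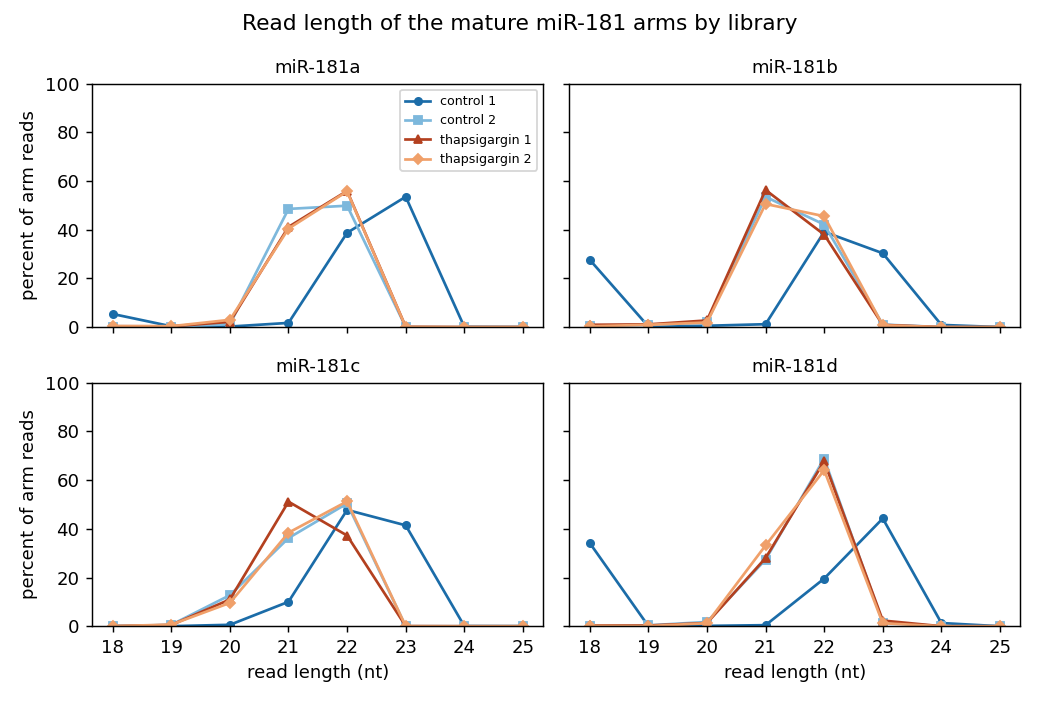
Read length in nucleotides (x axis) against the percent of an arm's reads (y axis) for the mature miR-181 arms, 1 line per library. Control replicate 1 peaks 1 nt later than the other libraries for miR-181a, miR-181b and miR-181d and has a further peak at 18 nt for miR-181b and miR-181d.

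Reads of 18 nt, the shortest length in the tables, differed in share between the paralogues in control replicate 1. They made up 34.2% of miR-181d reads there (exact 95% interval 31.7% to 36.8%), 27.6% of miR-181b reads (26.1% to 29.3%, rounded), 5.39% of miR-181a reads and 0.0476% of miR-181c reads. The length limit bears on the value of miR-181c, as given below. In the other 3 libraries the share was at most 0.941% in any mature arm of the family. Over the whole family it was 6.60% in control replicate 1 and 0.177%, 0.345% and 0.365% in control replicate 2 and the thapsigargin libraries. All arms together had 1.38%, 0.543%, 0.917% and 0.650%. Within the control group this is a gap between replicates, and the exact permutation p between groups was 1 for miR-181a, miR-181c and miR-181d and 0.667 for miR-181b. Treated minus untreated, the share differed by -2.39 percentage points for miR-181a, -13.5 for miR-181b and -16.9 for miR-181d, and by 0.23, 0.09 and 0.11 points without control replicate 1.

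The commonest 18-nt reads of control replicate 1 are shown with the rest of the RefSeq sequence in capitals, since the arms part at these bases.
miR-181a: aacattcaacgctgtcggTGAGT
miR-181b: aacattcattgctgtcggTGGGTT
miR-181d: aacattcattgttgtcggTGGGT
These reads, all ending at base 18, numbered 2361, 849 and 461. For miR-181b and miR-181d the bases that follow are TGG, and for miR-181a they are TGA. miR-181c, a base shorter, had 3 reads of 18 nt in this library, the commonest of which ended at base 21. In miR-181c the place where the reads above end falls a base earlier, at base 17. A read from base 1 to that place would be 17 nt long and could not be seen in any library. The low share of miR-181c thus does not show that it lacks this end. A read of the other libraries that begins at base 2 and ends at base 18 would be 17 nt long, and no library holds reads under 18 nt, so such reads could not be seen there. The most common 18-nt reads of miR-181a and miR-181b in those libraries ended at base 19.

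Other arms were placed beside the family by the same property. Of 131 arms with at least 100 reads in every library, 116 could be matched to RefSeq, and 7 of these had TGG after base 18, read on the miRNA strand only: miR-181b and miR-181d, and 5 outside the family. In control replicate 1 those 5 had between 8.33% and 45.4% reads of 18 nt, with a median of 24.4%. The 105 matched arms without TGG there, outside the family, had a median of 0.140% and a highest value of 35.1%. In control replicate 2 the highest of the 5 was 0.655%. A read that begins at base 2 and ends at base 18 is shorter than 18 nt and could not be seen there. The low shares in that library thus do not show that these arms lack this end. miR-181d ranked 3rd, miR-181b 5th and miR-181a 15th of the 131 in control replicate 1. The library and the bases move together here, and their part was not tested.

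**Figure D5:**
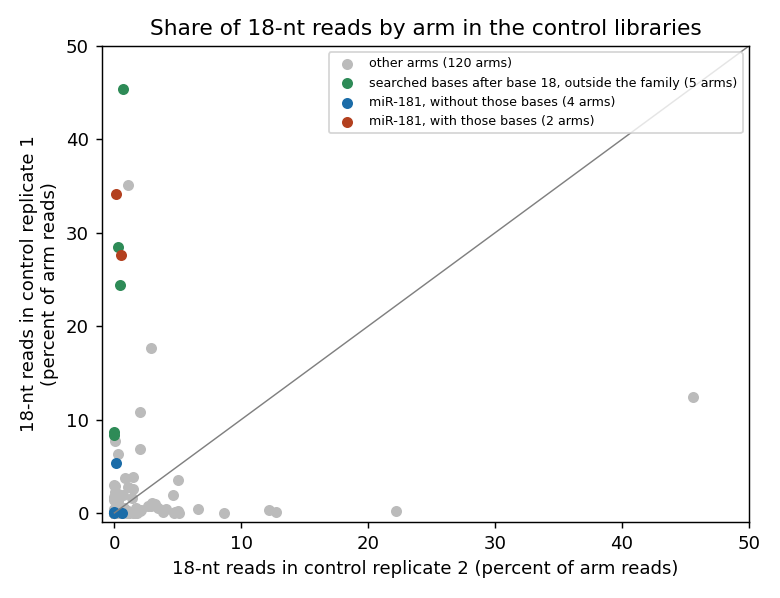
Share of 18-nt reads of each arm in control replicate 2 (x axis) and in control replicate 1 (y axis), both in percent of the arm's reads, with a line of equal shares. The searched bases are the TGG after base 18, and miR-181d and miR-181b lie at 34.2% and 27.6% on the y axis and under 1% on the x axis. Reads from base 2 to base 18 are shorter than 18 nt and could not be seen in either library.

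These reads bear on the fold changes of miR-181b and miR-181d. With reads of 18 nt left out of all libraries, the log2 fold change was 1.49 for miR-181b and 0.96 for miR-181d, against 1.30 and 0.70 with them. Once the first base was removed from reads of control replicate 1, its counts went from 3122 to 2262 for miR-181b, from 1369 to 903 for miR-181d and from 44476 to 42084 for miR-181a. The log2 fold changes were then 1.52, 0.98 and 1.08. None passed, with adjusted p from 0.898 to 0.958 in edgeR's quasi-likelihood test after this removal and from 0.947 to 0.991 without 18-nt reads.

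The 3′ ends differed between arms. miR-181b reads almost never reached the last base of the RefSeq sequence, with 0.102% to 0.298% ending there and 28.1% to 42.2% ending 1 base earlier. miR-181a reads ended at the last base in 47.8% to 53.9% and 1 base earlier in 37.2% to 46.7%. Some reads had up to 3 final bases that are not in the hairpin. They made up 1.42% to 2.02% of miR-181a, 3.72% to 7.53% of miR-181b and 4.38% to 8.33% of miR-181d reads. A single A was the commonest such end in each of these arms. In miR-181a it held 182 of 674, 45 of 231, 234 of 1029 and 150 of 641 such reads. An added base and a changed base were not told apart. In miR-181a-1* such reads made up 18.8% to 20.9%, most often a T, which stands for U in the RNA. miR-181b-1* was mostly of this kind, with 94%, 82.6%, 97.4% and 80% of its few reads. Its commonest read in control replicate 1 (30 of 50 reads) is shown with the base that departs from the hairpin in a capital.
miR-181b-1*, control replicate 1: ctcactgaacaatgaatgcaT
These shares were not tested between groups. Final bases of this kind were not analysed for the miR-181c arms.

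Beside the family stand 2 other miRNAs reported in human cells to repress GRP78, miR-30d and miR-199a-5p. miR-30d stood at 2052, 1707, 1810 and 2042 CPM. Its log2 fold change of 0.04 (SE 0.44) turned below 0 with other scalings (-0.35 by total reads). miR-199a-5p stood at 3473, 2132, 3098 and 1500 CPM, a log2 fold change of -0.29 (SE 0.53). In both the groups overlapped, and neither passed edgeR's quasi-likelihood test (adjusted p = 0.987 for both). With miR-181a, 0 of the 3 miRNAs on this list passed in either direction.

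The arms whose profile over the 4 libraries was most like that of miR-181a were let-7i, miR-423-3p and let-7f. Likeness was the root mean square difference of the log2 levels, each centred on its own mean, among 130 arms with at least 100 reads in every library. It was 0.130 for let-7i, which stood at 20431, 14470, 26324 and 51688 CPM. It was 0.239 for miR-423-3p and 0.274 for let-7f. Within the family miR-181d came closest, at 0.514 and place 29, followed by miR-181c at 0.553, miR-181b at 0.669, miR-181a-1* at 0.725 and miR-181c* at 0.827. The paralogues of miR-181a were thus farther from it than 28 arms outside the family.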

How the data were processed

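Small RNA libraries were made with a small RNA kit, per the labels' protocols. The submitters' processing notes name CASAVA 1.8.1, cutadapt, Bowtie, DESeq 1.4.1 and a mouse build older than GRCm38. The authors deposited whole-number counts per distinct read and per miRNA, and gave each summary count as a percent too. Their deposited comparison lists a log2 fold change and a p-value for each miRNA, per the file headers. The deposited mature summary of thapsigargin replicate 2 was not used. In the other summaries every family count equalled the read table.

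Reads matching 1 name were summed to 630 arms, predicted stars included. Testing used edgeR 4.0.16 under R 4.3.3 (quasi-likelihood, two-sided, TMM, filterByExpr with a minimum count of 10, 310 arms kept), and p-values were adjusted over all tested arms at 0.05. Each SE was derived from the fold change and the F value. DESeq2 1.42.0 and limma 3.58.1 were alternatives. Shares have exact 95% binomial intervals, for counting error only, and exact permutation tests (scipy 1.17.1). Read ends were placed by the first 12 bases on the RefSeq hairpin. For miR-181c and miR-181c*, whose hairpin had no entry, they were placed on the mature or star sequence alone.

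All family arms are named, with the GRP78 list, the 3 nearest profiles and arms with TGG after base 18. Members, lists and tests were chosen with earlier results of these data known.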

Additional observations from a re-analysis of the deposited data

How the results depend on the processing

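The 7 tested arms were refitted under 15 alternatives: other scalings, filters, tools and read handling, the replicate block and each library left out. No miR-181 arm was called in any of them. Of 102 values, 100 kept their direction. The exceptions were miR-181b at -0.71 and miR-181d at -0.67 without thapsigargin replicate 2; the cause was not tested. With each library left out, log2 fold changes for miR-181a lay between 0.33 and 1.43, the others at -0.71 to 2.07 for miR-181b, 0.03 to 0.93 for miR-181c and -0.67 to 1.36 for miR-181d. Star arms lay at -0.50 to -0.32 for miR-181c*, -0.27 to -0.16 for miR-181a-1* (rounded) and -0.69 to -0.26 for miR-181b-1*. Over all arms, 3 of 630 were called without the filter on low counts (miR-216a*, miR-217 and miR-671-5p), and 1 without control replicate 1, 3 without control replicate 2 and 0 without either thapsigargin library. With all 4 libraries and the filter on low counts, 0 arms were called by edgeR (12 at an unadjusted p under 0.05), by DESeq2 (15) or by limma-voom (13).

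miR-30d changed sign with RLE scaling (-0.0013), with DESeq2 (-0.0013), with total-read scaling (-0.35), without control replicate 2 (-0.12) and without thapsigargin replicate 2 (-0.04), in a leave-one-out range of -0.12 to 0.18. miR-199a-5p changed sign without control replicate 1 (0.12) and without thapsigargin replicate 2 (0.16), in a range of -0.95 to 0.16. The difference in 18-nt share of miR-181c, thapsigargin minus control, was 0.0122 percentage points over reads and 0.350 over distinct read sequences.

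Same-numbered libraries deviated together (correlation 0.563 over 310 arms), but with 2 pairs and no label that ties them this does not show pairing. With the replicate block 0 arms were called, 30 arms had an unadjusted p under 0.05, and miR-181a stood at 0.95, miR-181b at 0.69, miR-181c at 0.48 and miR-181d at 0.36.

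Depth left miR-181b-2* and miR-181d* untested, at 1 read each, and miR-181b-1* was tested on 10 to 50 reads a library.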
